A study of Mus musculus with 4 samples.

Results

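Mitochondrially encoded complex I mRNAs are the transcripts of mt-Nd1, mt-Nd2, mt-Nd3, mt-Nd4l, mt-Nd4, mt-Nd5 and mt-Nd6. These 7 genes were taken by symbol from a table of 36088 genes, and all 7 were present with 1 value per gene and library. They were selected on their TPM with CBR-5884 and with DMSO in these same libraries, so that contrast is described here and not tested for them. The libraries came from male germ cells of wild-type (WT) mice, sorted out of fetal testes that had been kept in culture, with day 14 in every title. The set holds 2 libraries from cultures with CBR-5884, an inhibitor of serine metabolism known to act on Phgdh, the first enzyme of serine synthesis, and 2 from control cultures with DMSO. Each condition was described as having 2 biological replicates, in a study of what serine metabolism does in male germ cell differentiation. Libraries are named by condition and by the number 2 or 4 that the deposited table gives them. The sources used here give neither the dose nor how testes were shared out between cultures.

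Complex I, the NADH dehydrogenase of the respiratory chain, takes electrons from NADH, passes them to ubiquinone and pumps protons across the inner mitochondrial membrane. Its core membrane subunits are encoded by mitochondrial DNA, while the remaining subunits are encoded in the nucleus and imported. Mitochondrial DNA is transcribed from both strands into long precursors, and mRNAs are released mostly by cutting out the tRNAs that lie between them. In mouse, stretches of mitochondrial DNA have also been copied into nuclear chromosomes over evolution, and such copies are annotated as pseudogenes.

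Sequence matters for these values because kallisto assigns short reads to transcripts through 31-base words, and a word that occurs in more than 1 gene does not say which gene it came from. Transcript sequences from GENCODE M21 (build GRCm38, which is mm10) were therefore compared with those of every other gene in the table on both strands. mt-Nd1 (chromosome M, 2751 to 3707) shared none of its 927 words with another gene. mt-Nd6 (13552 to 14070, the only 1 of the 7 on the minus strand) shared 7.36% of its words, mt-Nd2 (3914 to 4951) 13.5% and mt-Nd5 (11742 to 13565) 16.8%. The other 3 lie next to each other and have long copies in 1 stretch of chromosome 1. mt-Nd4 (10167 to 11544) shared 62.8% of its words with Gm28439 (chromosome 1, 24611535 to 24612410), mt-Nd4l (9877 to 10173) shared 98.9% with Gm10222 (24612407 to 24612700), and mt-Nd3 (9459 to 9806) shared 98.1% with Gm28438 (24612775 to 24613119), all 3 copies on the minus strand.

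The ends of mt-Nd3 and of Gm28438 are shown because they hold all the letters that set the pair apart. Counted from 1 at the first base of the mRNA, the substitution from mt-Nd3 to Gm28438 is T3C, so that 345 compared bases differed at 1 and the identity was 99.7%. The first 33 bases hold every word that covers this position, which the capitals mark (chrM:9459-9491, plus strand, and chr1:24613087-24613119, minus strand):
mt-Nd3: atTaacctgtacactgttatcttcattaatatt
Gm28438: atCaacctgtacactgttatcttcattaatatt
At the other end, capitals mark the 3 last bases of the mRNA, which lie beyond the annotated end of the copy (chrM:9774-9806, plus strand, and chr1:24612775-24612807, minus strand):
mt-Nd3: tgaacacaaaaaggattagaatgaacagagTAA
Gm28438: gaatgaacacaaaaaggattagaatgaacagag
Only 6 of the 318 words of mt-Nd3 were its own, and 3 of the 315 words of Gm28438 were absent from mt-Nd3.

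The mRNA of mt-Nd4l is the opposite case, since its copy has no word of its own. Capitals mark the 3 bases that lie beyond the end of Gm10222 (chrM:9877-10173, plus strand):
mt-Nd4l: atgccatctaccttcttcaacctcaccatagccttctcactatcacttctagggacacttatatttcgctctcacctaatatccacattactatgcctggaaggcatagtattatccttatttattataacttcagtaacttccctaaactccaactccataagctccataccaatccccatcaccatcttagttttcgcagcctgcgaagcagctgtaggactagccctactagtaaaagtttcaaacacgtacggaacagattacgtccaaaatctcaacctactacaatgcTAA
Gm10222 was identical to mt-Nd4l over 294 bases, and 3 words of the mRNA, at its end, were its own. Gm28439 overlaps the end of Gm10222 on the same strand and holds the same 3 bases next. These words therefore mark only where the annotated copy ends. Gm28439 was likewise identical to mt-Nd4 over 876 bases, which left the mRNA 502 words of its own.

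Pairs of neighbouring complex I genes also overlap. The last 30 bases of mt-Nd4l and the first 30 of mt-Nd4 share 7 bases of the same strand, shown in capitals (chrM:10144-10173 and chrM:10167-10196, plus strand):
end of mt-Nd4l: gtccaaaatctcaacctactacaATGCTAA
start of mt-Nd4: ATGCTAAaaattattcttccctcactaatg
The ends of mt-Nd5 and mt-Nd6 overlap by 14 bases on opposite strands, shown in capitals 5′ to 3′ on each gene's own strand (chrM:13536-13565, plus strand, and chrM:13552-13581, minus strand):
end of mt-Nd5: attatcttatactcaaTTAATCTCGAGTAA
end of mt-Nd6: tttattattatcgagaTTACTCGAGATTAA
Both overlaps are shorter than the 31-base word, so they gave no shared word. The sources used here do not say whether the libraries keep the strand of the RNA, and without it reads from an antisense transcript of either gene could not be told apart from its own.

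The libraries held an estimated 22400000 to 28200000 reads each, and 14920 genes with a mean of at least 1 TPM (a level per transcript length, relative to the library) were fitted together, among them all 7 complex I mRNAs. With limma 0.0% of these genes, 0 in all, passed a Benjamini-Hochberg adjusted p under 0.05 between CBR-5884 and DMSO, and 546 (3.66%) had an unadjusted p under 0.05. Germ cell identity was as labelled, with Ddx4, Dazl, Mael, Tex101 and Sycp3 all above 1 TPM and summing to 2050 to 2053 TPM in the CBR-5884 libraries and 1986 to 2025 TPM in the DMSO libraries. The 5 Sertoli cell markers summed to 73.3 to 88.8 TPM with CBR-5884 and 57.8 to 105 TPM with DMSO, the 4 macrophage markers to 9.29 to 23.6 and 14.6 to 16.9 TPM, the 4 endothelial markers to 9.23 to 10.4 and 9.81 to 9.88 TPM, and the 4 peritubular markers, of which Myh11 and Des were below 1 TPM, to 6.97 to 12.4 and 10.1 to 11.9 TPM. The 5 Leydig cell markers summed to 4.48 to 4.72 TPM and 5.15 to 6.70 TPM, with Cyp17a1, Cyp11a1, Hsd3b1 and Insl3 below 1 TPM, and the 4 red blood cell markers to 0.166 to 0.364 TPM with CBR-5884 and to 0 with DMSO. The ranges of the Sertoli, macrophage, endothelial and peritubular sums overlapped between the conditions, those of the germ, Leydig and red blood cell sums did not, and the part of other cells in the values below was not tested. In bulk samples such as these, fewer cells of a type and less RNA per cell cannot be told apart.

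Of the 7 complex I mRNAs, 6 had higher levels in both CBR-5884 libraries than in either DMSO library, by 1.35-fold for mt-Nd1 to 1.53-fold for mt-Nd4 as fitted on the log2(TPM + 1) scale. mt-Nd3 alone among the 7 had lower levels in both, at 0.55 of the DMSO level. Over all genes tested, 13.6% were higher in both CBR-5884 libraries without overlap and 17.7% lower. Since the genes were proposed from this contrast, nothing is read from that count.

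mt-Nd1 encodes the subunit at the joint of the membrane arm and the matrix arm, next to the ubiquinone pocket. It was the most abundant of the 7 in every library, with 2734 and 3008 TPM in CBR-5884 libraries 2 and 4, against 1967 and 2280 TPM in DMSO libraries 2 and 4. The conditions did not overlap, and the lower CBR-5884 library was 1.20 times the higher DMSO library. The means were 2871 ± 194 TPM with CBR-5884 and 2124 ± 221 TPM with DMSO (SD, n = 2 each), a log2 difference of 0.44 (SE 0.11). Since no other gene holds its words, this value does not rest on a split of reads with a copy.

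The proton-pumping subunits of the membrane arm are ND2, ND4 and ND5. mt-Nd2 had 1412 and 1613 TPM in the CBR-5884 libraries, against 1017 and 1126 TPM in the DMSO libraries, a log2 difference of 0.50 (SE 0.10). mt-Nd4 had 1833 and 1892 TPM in the CBR-5884 libraries, against 1271 and 1167 TPM in the DMSO libraries. It had the largest positive log2 difference of the 7, 0.61 (SE 0.09), and the widest gap among the 6 that were higher with CBR-5884, with the lower CBR-5884 library at 1.44 times the higher DMSO library. mt-Nd5 encodes the subunit at the far end of the arm and had 604 and 583 TPM in the CBR-5884 libraries, against 431 and 352 TPM in the DMSO libraries (log2 difference 0.61, SE 0.11). For all 3 mRNAs the conditions did not overlap.

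The small subunits ND4L and ND6 are also part of the membrane arm. mt-Nd4l had 1669 and 1650.0 TPM in the CBR-5884 libraries, against 1249.9 and 1085 TPM in the DMSO libraries, a log2 difference of 0.51 (SE 0.10). The CBR-5884 libraries lay closer together (SD 13.5 TPM, n = 2) than the DMSO libraries (SD 117 TPM, n = 2). mt-Nd6, which is transcribed from the other strand, had 558 and 493 TPM in the CBR-5884 libraries, against 376 and 322 TPM in the DMSO libraries (log2 difference 0.59, SE 0.11). Its difference lay among those of the plus-strand mRNAs other than mt-Nd3. Whether the libraries keep the strand is not given, so reads of the opposite strand could be part of the mt-Nd6 value. The ratio of mt-Nd5 to mt-Nd6, which come from opposite strands, was 1.08 and 1.18 in the CBR-5884 libraries and 1.15 and 1.09 in the DMSO libraries, so the conditions overlapped.

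**Figure D1:**
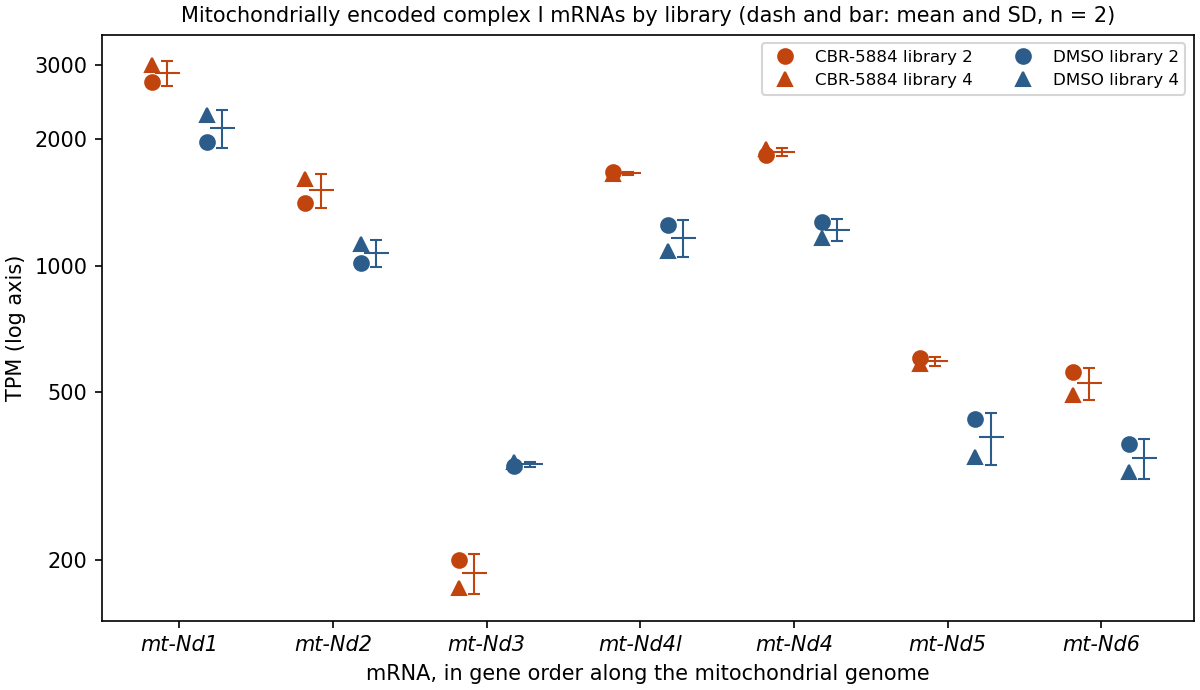
TPM on a log axis of the 7 mitochondrially encoded complex I mRNAs in gene order, with CBR-5884 libraries in red and DMSO libraries in blue; circles are library 2, triangles library 4, and the dash with its bar is the mean ± SD (n = 2). For 6 mRNAs both red points are above both blue points, and for mt-Nd3 they are below, at 200.03 and 171 TPM against 334 and 341 TPM.

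mt-Nd3 encodes a subunit with a loop beside the ubiquinone pocket. It had 200.03 and 171 TPM in the CBR-5884 libraries, against 334 and 341 TPM in the DMSO libraries, with means of 186 ± 20.2 and 338 ± 4.56 TPM (SD, n = 2 each) and a log2 difference of −0.86 (SE 0.09). The conditions did not overlap. kallisto divides reads that fit several transcripts by estimation, so these levels rest on a split with Gm28438, whose letters were shown above. Gm28438 itself was listed at 1778 and 2146 TPM in the CBR-5884 libraries, against 1405 and 1863 TPM in the DMSO libraries, so the conditions overlapped and the copy was above the mRNA in all 4 libraries. Of the TPM of both genes together, mt-Nd3 took 10.1 and 7.40% in the CBR-5884 libraries, against 19.2 and 15.5% in the DMSO libraries.

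Summed with its copy, mt-Nd3 no longer had lower values with CBR-5884. The sums were 1978 and 2317 TPM in the CBR-5884 libraries, against 1739 and 2204 TPM in the DMSO libraries, a log2 difference of 0.13. The conditions overlapped, since CBR-5884 library 2 was below DMSO library 4. The sum would place mt-Nd3 in the second rank of the 7 in every library, while on its own it was in the last rank in CBR-5884 libraries 2 and 4 and DMSO library 2 and in rank 6 in DMSO library 4. How much of the sum is transcribed from the nuclear stretch cannot be told apart by these letters. The words that cover T3C or the end of the mRNA separate only the reference transcripts. Which base the mitochondrial DNA of these mice carries at the position of T3C was not tested, so reads assigned to Gm28438 may also be mitochondrial.

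The other copies were assigned little or nothing. Gm10222 was listed at 0 TPM in all 4 libraries, so mt-Nd4l held the whole of its pair. Gm28439 was listed at 1.42e-05 and 9.42 TPM in the CBR-5884 libraries, against 37.4 and 0.123 TPM in the DMSO libraries, and mt-Nd4 took 97.1% or more of its pair in every library. The log2 difference of mt-Nd4 with its copy added was 0.60. Neither copy holds a word that its mRNA lacks, and Gm28438 holds 3. No word can thus mark a read as coming from Gm10222 or Gm28439. Their low values therefore do not show that mt-Nd4l and mt-Nd4 hold no reads from the nuclear stretch, which was not tested.

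**Figure D2:**
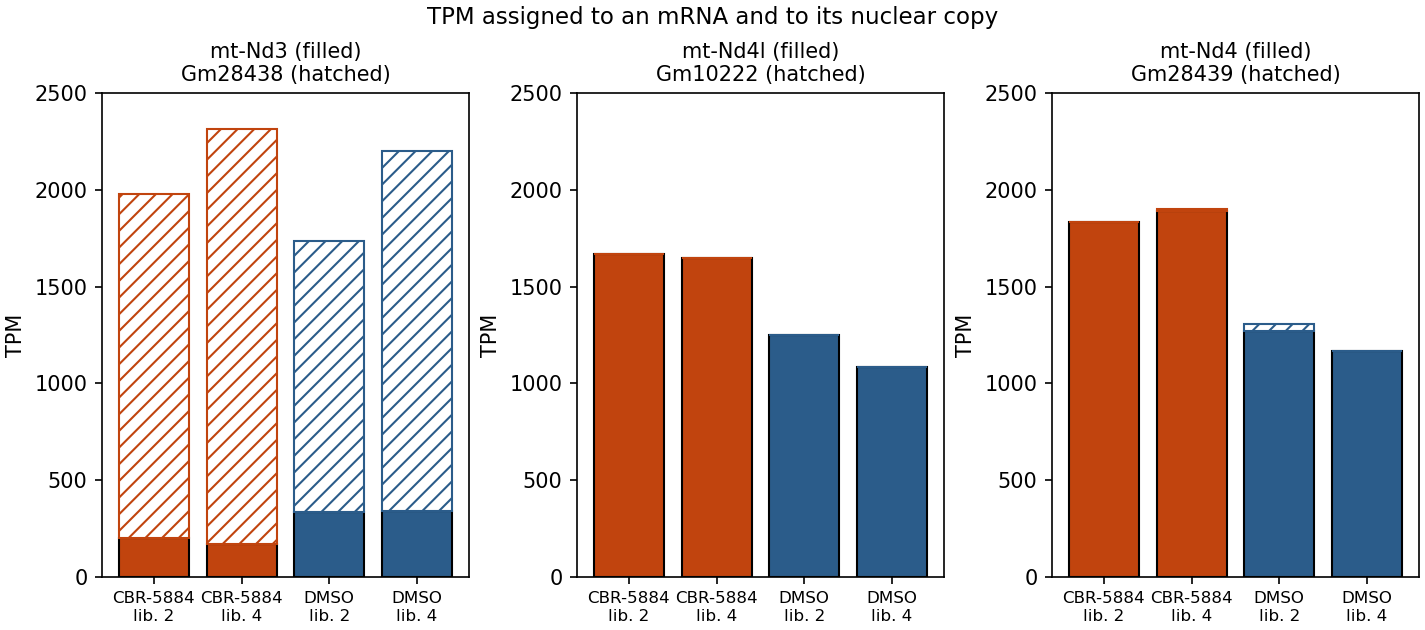
Stacked bars of TPM per library for mt-Nd3, mt-Nd4l and mt-Nd4 (filled) with the nuclear copy of each (hatched), CBR-5884 libraries in red and DMSO libraries in blue. The hatched part is most of the bar only for mt-Nd3, whose filled part is 7.40 to 10.1% of the bar with CBR-5884 and 15.5 to 19.2% with DMSO.

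The levels of the 7 mRNAs kept nearly the same order in all libraries. By mean TPM over the 4 libraries the order was mt-Nd1 (2497), mt-Nd4 (1541), mt-Nd4l (1414), mt-Nd2 (1292), mt-Nd5 (493), mt-Nd6 (438) and mt-Nd3 (262). mt-Nd1 was 1.49 to 1.95 times mt-Nd4, and mt-Nd2 was 2.34 to 3.20 times mt-Nd5, so these were the wide steps. mt-Nd4 was above mt-Nd4l in all 4 libraries, by 1.02 to 1.15 times, a step within the spread between libraries. mt-Nd4l and mt-Nd2 changed places in DMSO library 4, as did mt-Nd6 and mt-Nd3. Together the 7 mRNAs, without their nuclear copies, made 0.903 and 0.974% of all TPM in the CBR-5884 libraries, against 0.663 and 0.668% in the DMSO libraries. The ratio of mt-Nd4l to mt-Nd4, which are known to stay joined in 1 mRNA, was 0.91 and 0.87 in the CBR-5884 libraries and 0.98 and 0.93 in the DMSO libraries, without overlap.

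Libraries of the same condition also differed from each other, and not in the same direction for all members. mt-Nd1 and mt-Nd2 were higher in library 4 than in library 2, by 1.10 and 1.14 times with CBR-5884 and by 1.16 and 1.11 times with DMSO. mt-Nd5 was at 0.97 times with CBR-5884 and 0.82 times with DMSO, and mt-Nd6 at 0.88 and 0.86 times. mt-Nd4l was at 0.99 and 0.87 times, mt-Nd4 at 1.03 and 0.92 times and mt-Nd3 at 0.86 and 1.02 times. The sources used here do not say what differed between libraries 2 and 4. Comparing only libraries of the same number, the ratio of CBR-5884 to DMSO was 1.39 and 1.32 for mt-Nd1, 1.40 and 1.66 for mt-Nd5, and 0.60 and 0.50 for mt-Nd3, for the numbers 2 and 4 in this order.

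The 6 remaining mRNAs of mitochondrial DNA, which encode cytochrome b, subunits of complex IV and subunits of ATP synthase, were set beside the complex I mRNAs. In 4 of the 6 (66.7%, against 13.6% of all genes) both CBR-5884 libraries were above both DMSO libraries. With limma 0 passed the adjusted threshold, while 3 were higher at an unadjusted p under 0.05, beside 1.51% of all genes. Of these 4, mt-Co3 shares 99.9% of its words with the nuclear copy Gm28437, and summed with it had 5520 and 6195 TPM in the CBR-5884 libraries, against 4894 and 5565 TPM in the DMSO libraries, which overlap. The values of mt-Co1, mt-Co2 and mt-Atp6 rest on a split with nuclear copies too. These mRNAs were also part of earlier results of these data, so the count is a description. mt-Cytb had 2946 and 3303 TPM in the CBR-5884 libraries, against 2203 and 2184 TPM in the DMSO libraries (log2 difference 0.51, SE 0.10). mt-Co1 had a log2 difference of 0.51 (SE 0.11), mt-Co2 of 0.72 (SE 0.15), mt-Co3 of 0.23 (SE 0.11), mt-Atp6 of 0.07 (SE 0.24) and mt-Atp8 of 0.06 (SE 0.15). The 7 complex I mRNAs made 24.4 and 23.2% of the TPM of all 13 in the CBR-5884 libraries, against 22.4 and 21.1% in the DMSO libraries. This share leaves out the TPM assigned to nuclear copies.

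**Figure D3:**
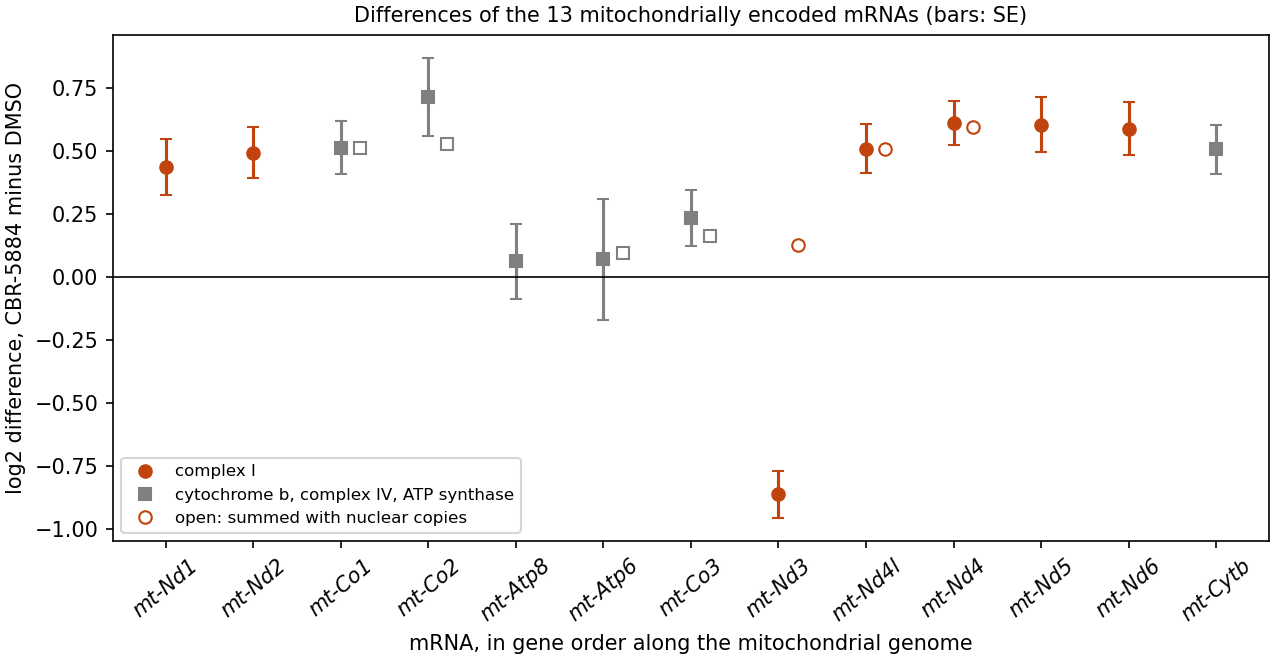
Log2 difference of TPM, CBR-5884 minus DMSO, with its SE, for the 13 mitochondrially encoded mRNAs in gene order; red circles are complex I, grey squares the others, and open symbols give the same mRNA summed with its nuclear copies. mt-Nd3 lies at −0.86 on its own and at 0.13 when summed, beside mt-Atp8, mt-Atp6 and mt-Co3, while the remaining 6 complex I mRNAs lie between 0.44 and 0.61.

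The nuclear genes of complex I did not show the higher values of the mitochondrial ones. Of 37 subunit genes, all tested, 0 passed the adjusted threshold with limma. At an unadjusted p under 0.05, limma had 0 of them higher and 1 lower, beside 1.51% and 2.15% of all genes. Their median log2 difference was −0.03, or 0.01 when scaled without mitochondrial genes and copies, against −0.01 over all genes and 0.51 for the 7 mitochondrial ones. In 0 of the 37 were both CBR-5884 libraries above both DMSO libraries, and in 5 (13.5%) both were below, against 13.6% and 17.7% of all genes. Abundant genes in general leaned lower. Over the 520 genes with a mean of at least 300 TPM the median log2 difference was −0.05, with 125 positive and 395 negative. The median level of the subunits was 163 TPM. The 7 core subunits, which carry the flavin and the iron-sulfur clusters in the matrix arm, lay between −0.09 and −0.03. Ndufv1, the subunit that binds NADH and flavin, had 339 and 333 TPM in the CBR-5884 libraries, against 359.6 and 348 TPM in the DMSO libraries.

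The 30 supernumerary subunits, which surround the core, lay between −0.25 and 0.13, with a median of −0.02. Ndufv3, a small subunit of the NADH-binding module, had 81.5 and 77.9 TPM in the CBR-5884 libraries, against 102 and 88.2 TPM in the DMSO libraries (log2 difference −0.25, SE 0.10; limma adjusted p = 0.998). Ndufa10, of the membrane arm, had 168 and 148 TPM with CBR-5884, against 181 and 174 TPM with DMSO, and Ndufa3 had 310.2 and 285 TPM against 314 and 335 TPM. On the higher side, Ndufs4 of the matrix arm had 144 and 160.4 TPM in the CBR-5884 libraries, against 130.0 and 147 TPM in the DMSO libraries, while Ndufa7 (484 and 482 TPM against 483 and 446 TPM) and Ndufa11 (399 and 322 TPM against 358 and 319 TPM) also overlapped between the conditions. Summed over the 37 genes, the nuclear subunits had 7031 and 6573 TPM with CBR-5884, against 7082 and 6789 TPM with DMSO. The summed level of the 7 mitochondrial mRNAs was 1.28 and 1.43 times that of the nuclear subunits with CBR-5884, against 0.939 and 0.983 times with DMSO. These ratios leave out the TPM assigned to nuclear copies. With the 3 copies added, the 7 mRNAs summed to 10789 and 11567 TPM with CBR-5884, against 8089 and 8536 TPM with DMSO. That sum was above the nuclear subunits in every library.

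Assembly factors, which build complex I without being part of it, had a median close to that of all genes. Of 19 listed genes 18 were in the table and tested. With limma 0 passed the adjusted threshold and 0 had an unadjusted p under 0.05. In 3 of the 18 (16.7%) both CBR-5884 libraries were above both DMSO libraries and in 6 (33.3%) below, beside 13.6% and 17.7% of all genes. The median log2 difference was −0.03, or 0.0079 when scaled without mitochondrial genes and copies. Ecsit had 56.9 and 57.7 TPM in the CBR-5884 libraries, against 61.9 and 69.3 TPM in the DMSO libraries, and Ndufaf8 had 96.8 and 94.1 TPM against 105 and 106 TPM. Ndufaf3 had 5.60 and 9.10 TPM with CBR-5884, against 8.58 and 10.8 TPM with DMSO, and overlapped. On the higher side were Dmac1 (48.6 and 48.3 TPM against 46.1 and 38.8 TPM), Tmem70 (59.2 and 54.0 TPM against 45.4 and 54.2 TPM) and Nubpl (13.2 and 12.8 TPM against 10.4 and 12.5 TPM), each with CBR-5884 before DMSO.

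Nuclear genes that transcribe mitochondrial DNA or process its RNA had members on both sides. Of 22 tested, 0 passed the adjusted threshold with limma, which gave 2 higher and 0 lower genes at an unadjusted p under 0.05, beside 1.51% and 2.15% of all genes. In 5 (22.7%) both CBR-5884 libraries were above both DMSO libraries and in 6 (27.3%) below, beside 13.6% and 17.7% of all genes, and the median log2 difference was 0.0076. The lowest of the list, named after its value was seen, was Tfb2m, a mitochondrial transcription factor, with 39.4 and 53.5 TPM in the CBR-5884 libraries, against 54.2 and 64.5 TPM in the DMSO libraries (log2 difference −0.36, SE 0.17; limma adjusted p = 0.998). Polrmt, the mitochondrial RNA polymerase, had 48.5 and 43.5 TPM in the CBR-5884 libraries, against 46.3 and 44.7 TPM in the DMSO libraries. Tfam, which packs mitochondrial DNA and starts its transcription, had 87.9 and 92.0 TPM against 84.3 and 104 TPM. Lrpprc, which stabilises mitochondrial mRNAs, had 98.4 and 99.2 TPM with CBR-5884, against 104 and 107 TPM with DMSO, and its partner Slirp had 109 and 87.3 TPM against 92.0 and 95.1 TPM. Grsf1 and Fastk, RNA-binding proteins known to act on the ND6 transcript, had 157 and 152 TPM and 63.8 and 60.9 TPM with CBR-5884, against 160.0 and 169 TPM and 56.4 and 53.1 TPM with DMSO. The 2 genes at an unadjusted p under 0.05, named after their values were seen, were Mterf3, a brake on mitochondrial transcription (59.9 and 73.4 TPM against 53.5 and 50.5 TPM), and Fastkd2, of the mitochondrial RNA granule (23.5 and 23.4 TPM against 17.5 and 19.7 TPM), both at a limma adjusted p of 0.998.

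**Figure D4:**
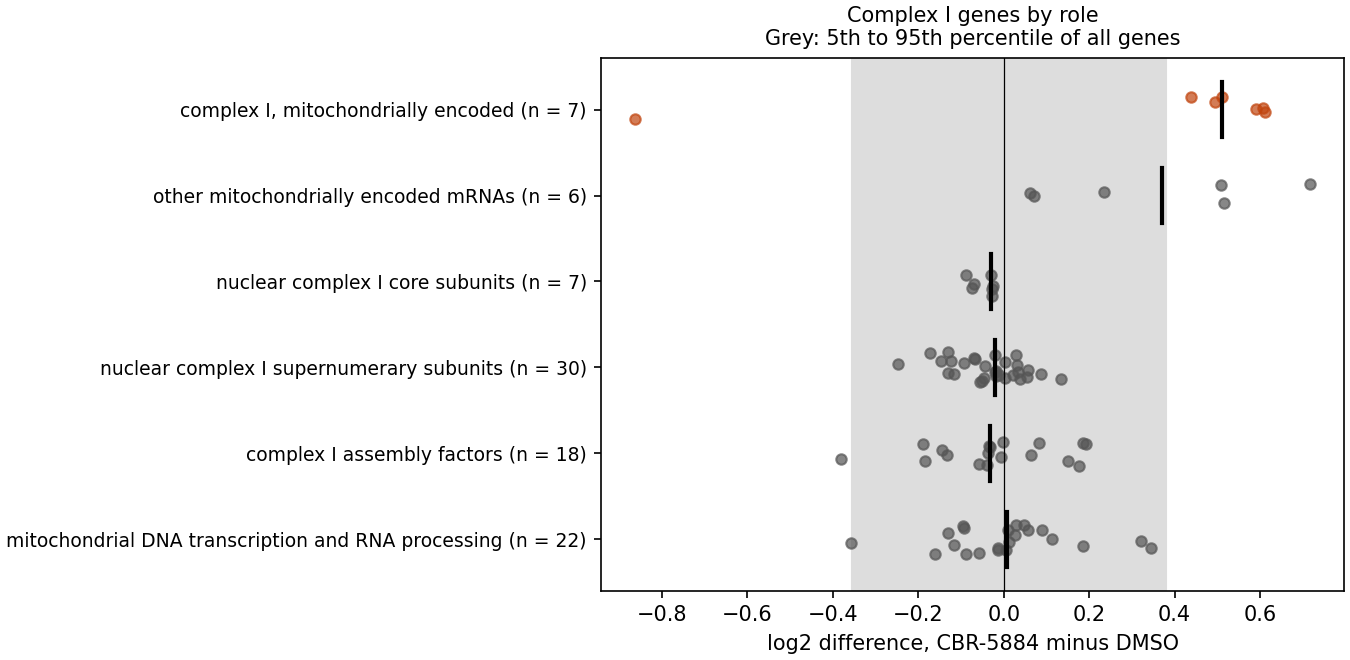
Log2 difference of TPM, CBR-5884 minus DMSO, for each gene (points) with the median of its list (bars), from the 7 mitochondrially encoded complex I mRNAs at the top to the mitochondrial transcription and RNA processing genes at the bottom; grey spans the 5th to 95th percentile of all genes, −0.36 to 0.38. The medians are 0.51 for the mitochondrial complex I mRNAs, 0.37 for the other mitochondrial mRNAs and between −0.03 and 0.0076 for the nuclear lists.

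Likeness of pattern was measured as the root mean square difference between a gene's log2(TPM + 1) values over the 4 libraries, centred on their mean, and the median centred values of the 7 mRNAs. By this measure 6 of the 7 lay within 0.022 (mt-Nd4l) to 0.152 (mt-Nd1) of the median pattern, which they themselves form, and mt-Nd3 lay at 0.711. Of the other mitochondrial mRNAs, mt-Co1 (0.064), mt-Cytb (0.080) and mt-Co2 (0.137) were nearer to it than mt-Nd1. Farther away were mt-Co3 (0.198), mt-Atp8 (0.296) and mt-Atp6 (0.394). Among 8890 named genes with a mean of at least 10 TPM, outside mitochondrial genes and their copies, the nearest were Jmjd7 (0.027), Slc16a6 (0.039), Pacsin1 (0.045), Setd4 (0.053) and Dynlt1c (0.056). Jmjd7, an amino acid hydroxylase, had 16.8 and 17.7 TPM in the CBR-5884 libraries, against 12.3 and 10.5 TPM in the DMSO libraries. Slc16a6, of the monocarboxylate transporter family, had 23.0 and 24.8 TPM against 17.0 and 15.7 TPM, and Setd4, a SET-domain protein, had 21.7 and 22.4 TPM against 15.1 and 14.8 TPM. Pacsin1, a membrane-shaping protein, had 14.6 and 15.5 TPM against 10.6 and 9.97 TPM. Dynlt1c, from a group of near-identical dynein light chain genes among which reads may be split, had 20.8 and 21.0 TPM against 16.1 and 12.6 TPM. With 4 libraries, such nearness describes these values alone.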

How the data were processed

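Libraries were TruSeq RNA libraries from 100 ng of column-purified total RNA, per the labels' protocols. Reads went through fastp and kallisto with build mm10, per the submitters' processing notes, which name no versions. Per the file headers the deposited table holds scaled reads per base and TPM, both treated as signal values; the deposited TPM signal summed to 966761 to 1002976 per library. A single value per gene and library was kept. The most frequent low value of scaled reads, taken as 1 read, gave the estimated depth, but only 35.3 to 36.2% of low values were whole multiples at a tolerance of 0.05, so whole reads were not recovered and no count test was run. At this depth counting error was 0.41 to 2.99% of each complex I value, without the split between copies.

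The comparison used limma 3.58.1 (trend, two-sided) in R 4.3.3 on log2(TPM + 1), all 4 libraries, no covariate, over the 14920 genes whose mean TPM reached 1 (21168 left out), with calls at an adjusted p under 0.05. On simulated data only the recovery of planted log2 differences was checked, and no condition was set on the calls. Log2 differences on the log2(TPM + 1) scale understate low genes. An exact permutation test of 2 against 2 cannot go below 0.333. A nuclear copy is a gene holding at least 20% of an mRNA's 31-base words; 116337 of 117403 transcripts had a sequence.

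The 7 genes and all lists were chosen with earlier results of these data known. Named genes are the 7, the other mitochondrial mRNAs, the nuclear copies, the 3 smallest p in each direction among subunits and assembly factors, 6 RNA factors and the 5 nearest patterns; Ndufv1, Tfb2m, Mterf3 and Fastkd2 were added after their values were seen. Which labelled replicate a library is could not be told, and only its condition was used. Alternatives were other pseudocounts, filters and scalings, the other deposited measure, a replicate block, each library left out, and sums with nuclear copies; summing the 6 other mRNAs with theirs was chosen after seeing the data. With the replicates' origin beyond this not given, p-values measure only the spread between these libraries.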

Additional observations from a re-analysis of the deposited data

How the results depend on the processing

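The median log2 difference of the 7 complex I mRNAs, 0.51, stayed positive in 14 alternatives, with 0.48 to 0.61 when each library was left out, and 0.54 over the 4 mRNAs with under 20% shared words. mt-Nd1, mt-Nd2, mt-Nd4l, mt-Nd4, mt-Nd5 and mt-Nd6 kept a positive difference in every setting, and mt-Nd3 kept a negative difference in every setting but 1. Summed with Gm28438, which makes up most of the sum, mt-Nd3 had a difference of 0.13, and the conditions overlapped. The 7 were selected on this contrast and none overlapped between the conditions. Leaving out 1 library therefore could not change a sign, and the kept signs are no support for the differences. Over all genes 0 were called in each alternative except with scaled reads in place of TPM, where 1 was (Hspa1b, log2 difference −1.66, limma adjusted p = 0.0272). Genes at an unadjusted p under 0.05 numbered 546, against 1079 with no filter on low values and 1034 without DMSO library 2. The median of the nuclear subunits was −0.03, but 0.0136 when scaled without mitochondrial genes and copies, and −0.0834 to 0.0264 when each library was left out. The median of assembly factors was −0.03, but −0.0067 with equal library totals and 0.0079 when scaled without mitochondrial genes and copies (−0.0416 to −0.0258 when each library was left out). That of mitochondrial transcription and RNA processing genes was 0.0076, but 0.0338 with equal totals, 0.0485 when scaled without mitochondrial genes and copies, and −0.0286 to 0.0321 when each library was left out; the cause was not tested. With the table's library number as a replicate block 0 genes were called and the median of the 7 mRNAs was 0.51; same-numbered libraries deviated together with a correlation of 0.2 over genes, and nothing in the labels pairs them. Count tests (edgeR, DESeq2) were not run because the table holds no counts. Counting error at this depth, at most 2.99% of a complex I value, leaves out the spread between 2 libraries and the split of mt-Nd3 with its copy.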

Other observations

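mt-Nd3 and the 3 mRNAs that come before it in gene order had the smallest differences among the 13 once nuclear copies were added, a pattern noticed after the values were seen and not tested. mt-Atp8 had a log2 difference of 0.06, mt-Atp6 with Gm10925 of 0.10, mt-Co3 with Gm28437 of 0.16 and mt-Nd3 with Gm28438 of 0.13, and in all 4 the conditions overlapped. mt-Atp8 (7766 to 7969) and mt-Atp6 (7927 to 8607) overlap in position and share 13 words, so their values are not independent of each other. The mRNAs on either side, mt-Co2 with its copies before them and mt-Nd4l after them, had differences of 0.53 and 0.51, with 5767 and 5534 TPM in the CBR-5884 libraries against 3945 and 3887 TPM in the DMSO libraries for mt-Co2 with its copies. Without its copies mt-Co2 had 2863 and 3252 TPM in the CBR-5884 libraries, against 2145 and 1606 TPM in the DMSO libraries, so its libraries lay closer together after the sum, as a share of their mean.

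Partial nuclear copies of the other complex I genes were at low levels in the table. Gm13339, with 13.5% of the words of mt-Nd2, had 0.214 and 1.39 TPM with CBR-5884, against 0.370 and 0.402 TPM with DMSO. Gm4076 and Gm11407, partial copies of mt-Nd5, had at most 0.369 TPM in any library, and Gm11408, which is 519 bases long like mt-Nd6 and shares 7.36% of its words, had at most 0.893 TPM.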
